A study of Mus musculus with 2 samples.

Results

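The genes described here encode secreted growth factors that signal through receptor tyrosine kinases, with several of the receptors. They were chosen by symbol: the fibroblast growth factors (Fgf) and their receptors, the platelet-derived (Pdgf) and vascular endothelial (Vegf) growth factors, the ligands and receptors of the EGF family (Hbegf, Ereg, Areg, Btc, Tgfa, Nrg1 to Nrg4, Egfr, Erbb2 to Erbb4), and the pairs Hgf with Met and Kitl with Kit. The expression table held 50 such genes of 24015, of which 40 encode ligands or ligand relatives and 10 encode receptors. The rule itself names symbols and uses no measured value, but it was set with earlier results of these data known. Some relatives lie outside the rule, among them Egf, the PDGF receptor genes Pdgfra and Pdgfrb, the VEGF receptor genes Flt1, Kdr and Flt4, and the VEGF-D gene, which the table lists as Figf.

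Growth factors of these families bind the outer part of a receptor kinase, bring receptor chains together and start phosphorylation cascades, above all the RAS to ERK pathway, that drive division, migration and survival. Mesenchymal cells such as fibroblasts are known as a source of ligands for epithelium (FGF7, FGF10, HGF), for endothelium (VEGF-A) and for melanoblasts and blood progenitors (KIT ligand), and as the cells that answer PDGF. Many of the ligands are held by heparan sulfate at the cell surface or are made as membrane proteins that a protease must release.

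The study compared cultured mouse embryonic fibroblasts of genotype Adar2+/+ (titled Adar2-WT) with cells of genotype Adar2-/- (titled Adar2-KO), both grown in DMEM with serum and antibiotics, by single-end poly(A)+ RNA-seq. Adar2, listed as Adarb1, encodes an adenosine deaminase that edits double-stranded RNA. Each genotype had 1 library, so nothing below has a replicate check, no p-value was computed, and every interval covers counting error only. The labels name neither the deleted exon nor the strain, embryo or passage of the cells, and they name alternative library kits without assigning them. A difference of genotype therefore cannot be told apart from one of culture or library.

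Levels are RPKM, reads scaled to gene length and to the library total, from 9446911 reads in the library labelled Adar2-WT and 9546997 in the library labelled Adar2-KO. Adarb1 itself stood at 18.4 and 25.8 RPKM, so its transcript was not lower under the KO label. A whole-gene value cannot show whether an exon is missing. The lists of edited sites held 654 sites under the WT label and 110 under the KO label. Directions below rest on the labels, and the libraries are called WT-labelled and KO-labelled, with values given in that order where no label is named. All 12 fibroblast markers were compared, with sums of 564 and 598 RPKM, Vim at 82.7 and 81.0 RPKM and Fn1 at 96.2 and 97.9 RPKM, while Thy1 (9.40 and 72.1 RPKM) and Dcn (29.7 and 12.3 RPKM) were more than 2-fold apart in opposite directions. Without Thy1 the other 11 markers summed to 554.8 and 526.1 RPKM, and Lum was at 19.1 and 11.3 RPKM. Markers of other cells were mostly near 0 and in several lists summed lower under the KO label. The 8 epithelial markers summed to 61.8 and 20.6 RPKM, nearly all of it Krt19 (59.4 and 18.8 RPKM), with Cdh1 at 75 and 3 reads, Epcam at 2 and 0, Krt8 at 1 and 18 and Krt5 at 0 and 7, so these markers differed in both directions. The 7 endothelial markers summed to 3.998 and 0.409 RPKM (3 at 0 in both libraries, Tek at 106 and 6 reads). The 7 myeloid markers summed to 13.2 and 11.2 RPKM (Csf1r at 64 and 3 reads, Lyz2 at 59 and 37, Cd68 at 62 and 90). The 5 cartilage markers summed to 60.9 and 15.3 RPKM. Among them Col2a1 was at 48.0 and 0.571 RPKM (2329 and 28 reads) and Sox9 at 12.8 and 14.45 RPKM. The 8 mast cell markers summed to 0.994 and 0.263 RPKM, with 5 at 0 in both. The part of such cells in the differences below was not tested, and fewer cells of a type and less RNA per cell cannot be told apart.

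Of the 50 genes, 27 reached 1 RPKM in a library and were compared. On the scale log2((KO + 1)/(WT + 1)) of the RPKM values, which understates differences of low genes, 3 were at least 2-fold higher under the KO label: Pdgfb, Nrg1 and Fgf21. Among all 13867 genes compared in the same way the share was 4.42%, against 11.1% of the 27. At least 2-fold lower were 6, namely Hgf, Fgf5, Pdgfd, Btc, Fgf2 and Ereg, or 22.2%, where the share of all genes was 7.46%. The remaining 18 lay within 2-fold, and the median log2 ratio of the 27 genes was 0.05, beside 0.01 for all genes compared. No gene with a recovered length exceeded 0.997 (WT label) and 1.19 (KO label) reads per base. The highest RPKM of any gene was 107 and 124.3. Against those maxima, Fgf7 stood at 0.569 and 0.597 reads per base and Vegfa at 0.485 and 0.482. Whether differences between highly expressed genes are compressed was not tested. The closeness, ranks, shares, ratios, intervals and 2-fold calls of such genes below carry that limit. Ereg (0.444 and 0.21 reads per base) and Kitl (0.235 and 0.441), both near the 2-fold mark, are among them. All 9 genes past the 2-fold mark encode ligands, of 21 ligand genes compared (14.3% higher and 28.6% lower). None of the 6 compared receptor genes passed it, which at the shares of all genes (4.42% and 7.46%) does not set receptors apart. With a pseudocount of 0.1 the receptor gene Fgfr3 passed it on the lower side. Nearest to the mark on its outer side was Ereg (log2 ratio -1.06), and inside it Kitl (0.87) and Tgfa (0.81).

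**Figure D1:**
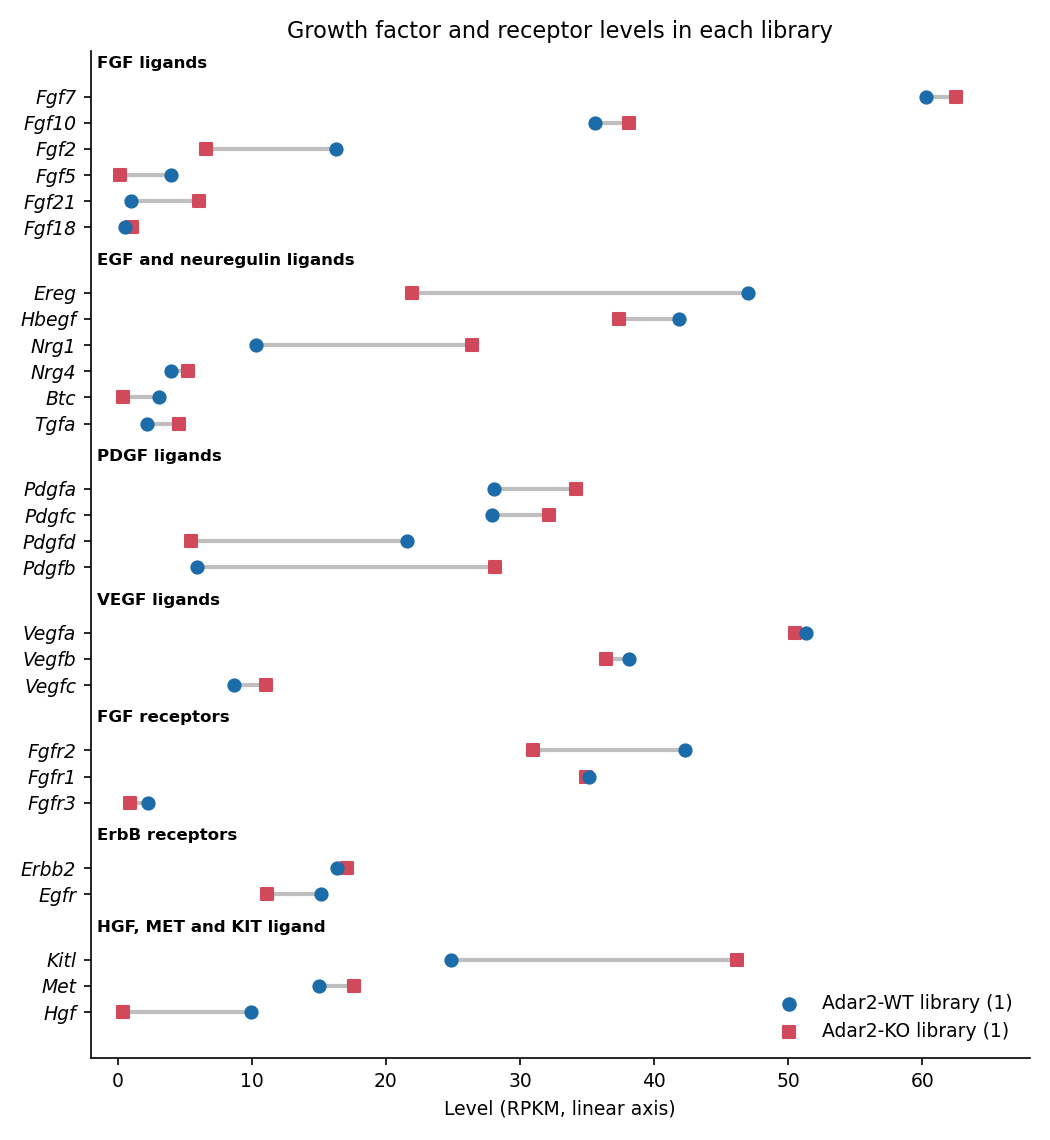
Level of each compared gene, in RPKM on a linear axis, in the WT-labelled (blue circle) and the KO-labelled library (red square), grouped by family; a grey line joins the values of a gene, and each point is 1 library. Fgf7, Vegfa, Vegfb, Fgf10 and Fgfr1 each have close values, all at 34.9 RPKM or more, whereas Ereg, Pdgfd, Fgf2 and Hgf lie to the left under the KO label and Pdgfb, Nrg1 and Kitl to the right.

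The stretch before the transcription start is shown for 4 genes with a large difference, Fgf21 on the higher side and Hgf, Fgf5 and Pdgfd on the lower, to set genes that differ in opposite directions side by side. Each run holds the 250 bases before a RefSeq start on the strand of the gene (GRCm38.p6, a later build than the mm9 named for the study), 5′ to 3′. Capitals mark matches, on either strand, to 6 short motifs that were searched: the TATA box (letters TATAAA), the CCAAT box, the GC box (letters GGGCGG), the E-box (letters CACGTG), the AP-1 site (letters TGACTCA) and a C/EBP-ATF composite site (letters TGATGCAAT). The windows are chr7:45615491-45615740 (minus strand) for Fgf21, chr5:16553245-16553494 (plus strand, the upstream one of the listed starts) for Hgf, chr5:98253934-98254183 (plus strand) for Fgf5 and chr9:6168236-6168485 (plus strand) for Pdgfd.
Fgf21: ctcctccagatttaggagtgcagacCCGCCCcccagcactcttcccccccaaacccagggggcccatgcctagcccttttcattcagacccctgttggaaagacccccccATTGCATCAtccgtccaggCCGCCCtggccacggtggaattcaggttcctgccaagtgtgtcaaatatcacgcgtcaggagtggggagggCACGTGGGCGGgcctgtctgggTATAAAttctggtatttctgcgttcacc
Hgf: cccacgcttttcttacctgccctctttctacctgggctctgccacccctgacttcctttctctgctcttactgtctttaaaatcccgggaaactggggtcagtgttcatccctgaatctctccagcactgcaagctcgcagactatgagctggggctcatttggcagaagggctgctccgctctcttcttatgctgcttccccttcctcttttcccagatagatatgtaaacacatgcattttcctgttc
Fgf5: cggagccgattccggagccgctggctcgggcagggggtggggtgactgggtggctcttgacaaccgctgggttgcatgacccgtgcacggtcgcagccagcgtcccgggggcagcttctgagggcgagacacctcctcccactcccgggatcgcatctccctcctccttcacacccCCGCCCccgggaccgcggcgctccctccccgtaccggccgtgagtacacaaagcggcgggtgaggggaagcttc
Pdgfd: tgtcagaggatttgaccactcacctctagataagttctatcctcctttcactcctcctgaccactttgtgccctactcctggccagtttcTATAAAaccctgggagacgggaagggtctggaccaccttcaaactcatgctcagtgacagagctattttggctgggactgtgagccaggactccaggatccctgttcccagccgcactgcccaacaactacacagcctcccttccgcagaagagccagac

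The Fgf21 window held a TATA box from base -28 to -23, counted from the start, an E-box from -50 to -45 that shares a base with a GC box, further GC boxes, and a TGATGCAAT match on the opposite strand from -140 to -132. That last motif, of the kind bound by ATF4 with C/EBP partners, occurred in 0.167% of the 32851 RefSeq windows of this length and in 1 of the 26 windows of the compared genes. The Pdgfd window held TATAAA from -160 to -155 and the Fgf5 window a GC box from -74 to -69. No motif of the search was in the Hgf window shown, which says only that these letters are not there. Over the 26 windows of the 22 compared genes with an entry, GGGCGG was in 17 (32.7% of all windows), CCAAT in 5 (33.8%), TATAAA in 3 (12.4%), CACGTG in 2 (6.02%) and TGACTCA in 1 (4.46%). Such matches are a description of the reference and not sites shown to be used in these cells.

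FGF ligands of fibroblasts were dominated by the pair that signals to epithelium. Fgf7, the keratinocyte growth factor, had 60.3 RPKM (1521 reads) under the WT label and 62.5 RPKM (1595 reads) under the KO label. It was the highest of the 27 genes in both and stood above 95.9% and 97.0% of all compared genes. Fgf10, needed for limb and lung outgrowth, had 35.6 RPKM (1537 reads) and 38.1 RPKM (1663 reads). The 95% intervals of the log2 ratio of reads, -0.05 to 0.16 for Fgf7 and -0.0025 to 0.20 for Fgf10, held 0, so neither difference was beyond counting error. Together these genes made up 79.8% and 86.4% of the summed RPKM of the 18 secreted FGF ligands, whose total was 120.1 and 116.5 RPKM.

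Other secreted FGFs were further apart. Fgf2, basic FGF, which lacks a signal peptide and is a mitogen for fibroblasts, had 16.3 RPKM (107 reads) under the WT label and 6.63 RPKM (44 reads) under the KO label. The log2 ratio was -1.18, and the interval of the reads ratio, -1.84 to -0.78, includes differences smaller than 2-fold. The authors' deposited table gives Fgf2 a generalized log2 fold change (a value shrunken toward 0 where reads are few) of -0.65. Fgf2 overlaps Nudt6, a gene on the opposite strand, which was apart in the same direction, at 28.3 RPKM (289 reads) and 14.1 RPKM (146 reads). The sources used here do not say whether counting used strand, so reads of the shared 640 bases cannot be assigned to either gene. Of the other compared genes, those that share exonic bases in GENCODE M21 with a gene of the table are Nrg4 (166 bases with Fbxo22), Fgfr2 (314 bases with Ctbp2, same strand) and Erbb2 (9 bases with Mien1). Overlaps with genes not in the table, on the opposite strand, touch Pdgfa (813 bases), Nrg1 (442), Fgfr3 (437), Fgfr1 (164), Pdgfc (147), Ereg (141), Tgfa (118) and Fgf10 (69), and Fgf2 shares 255 bases with such a gene on its own strand. The length behind the Fgf2 value was also short, 695 bases where GENCODE M21 has 6525 exonic bases for the gene, so its level relative to other genes is uncertain.

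Fgf5, best known as the signal that ends hair growth, had 4.02 RPKM (95 reads) under the WT label and 0.209 RPKM (5 reads) under the KO label. That is 19.2-fold lower, with an interval of the log2 reads ratio of -5.92 to -2.99. Fgf21, an endocrine FGF of metabolic stress that needs the co-receptor beta-Klotho, differed in the other direction, with 1.01 RPKM (9 reads) and 6.08 RPKM (55 reads). It was 6.05-fold higher (interval 1.57 to 3.80), and the authors' deposited table gives it a generalized log2 fold change of 1.19. Klb, which encodes beta-Klotho, had 20 reads (0.616 RPKM) and 6 reads (0.183 RPKM), below 1 RPKM in both libraries (interval -3.36 to -0.38).

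The remaining FGF genes were near the limit of this depth. Fgf18 reached 1.06 RPKM under the KO label (16 reads, against 8) and had the lowest maximum over the libraries of the 27 genes. Its interval, -0.32 to 2.42, held 0. The genes Fgf1, Fgf3, Fgf4, Fgf6, Fgf8, Fgf9, Fgf15, Fgf16, Fgf17, Fgf20, Fgf22 and Fgf23 stayed under 1 RPKM, as did the intracellular FGF homologous factors Fgf11, Fgf12, Fgf13 and Fgf14, which regulate sodium channels and are not secreted. The bone hormone gene Fgf23 was just under the limit for comparison with 22 reads (0.862 RPKM) in the WT-labelled and 3 reads (0.116 RPKM) under the KO label, an interval of -5.27 to -1.16. Fgf6 had 5 reads under the WT label and none under the KO label, where 0 reads allow up to 0.255 RPKM (3 reads).

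Fgfr1 and Fgfr2 were the FGF receptor genes with appreciable levels. Fgfr1 had 35.2 and 34.9 RPKM, with no single number of reads to be recovered. Fgfr2, whose epithelial isoform is the receptor for FGF7 and FGF10 and whose isoforms this table does not separate, had 42.3 RPKM (2136 reads) under the WT label and 31.0 RPKM (1581 reads) under the KO label. The difference was 1.37-fold, with an interval of -0.54 to -0.35. Fgfr3, a brake on cartilage growth, was low, with 2.29 RPKM (95 reads) and 0.929 RPKM (39 reads). Its plain RPKM ratio was 2.46-fold lower (interval -1.88 to -0.75), while on the RPKM + 1 scale the log2 ratio was -0.77, inside the 2-fold mark. Fgfr4 had 4 and 0 reads. The 4 receptor genes summed to 79.9 and 66.8 RPKM.

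The PDGF ligands Pdgfb and Pdgfd differed in opposite directions. PDGF chains form dimers that act on PDGFRA and PDGFRB, and the C and D chains must first be cut by a protease. Pdgfb had 5.90 RPKM (164 reads) under the WT label and 28.2 RPKM (791 reads) under the KO label, 4.77-fold higher (interval 2.01 to 2.51). Pdgfd, a ligand of PDGFRB like PDGF-B, had 21.6 RPKM (366 reads) and 5.49 RPKM (94 reads), 3.94-fold lower (interval -2.32 to -1.65). The authors' deposited table gives generalized log2 fold changes of 2.02 for Pdgfb and -1.54 for Pdgfd.

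The A and C chains, which act on PDGFRA, were closer. Pdgfa had 28.1 RPKM (269 reads) under the WT label and 34.2 RPKM (331 reads) under the KO label. Pdgfc had 27.9 RPKM (926 reads) and 32.2 RPKM (1079 reads). Both intervals lay above 0 (0.05 to 0.52 and 0.08 to 0.33), with ratios of 1.22 and 1.15. Summed over the 4 chains the level was 83.5 and 99.99 RPKM, within which Pdgfb made up 7.07% and 28.2% and Pdgfd 25.9% and 5.49%, while Pdgfa (33.6% and 34.2%) and Pdgfc (33.4% and 32.2%) had close shares. The receptor genes, which are outside the rule, were both lower under the KO label within 2-fold, at 40.6 and 29.2 RPKM for Pdgfra and 47.7 and 35.4 RPKM for Pdgfrb.

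**Figure D2:**
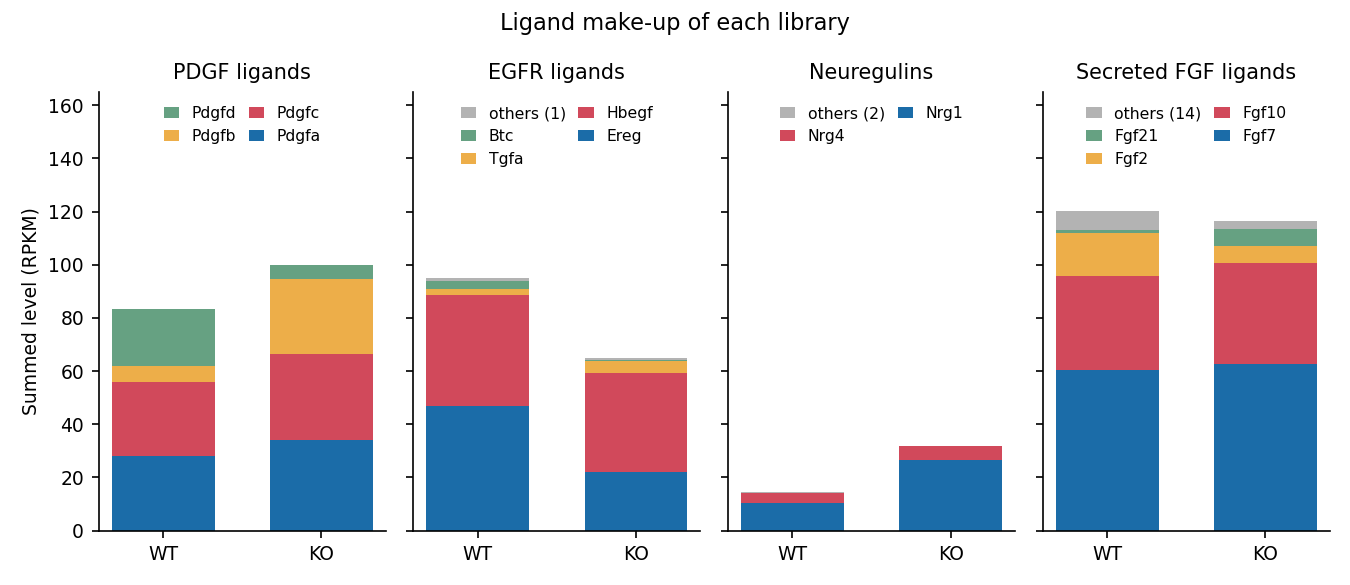
Summed level in RPKM of the PDGF ligands, the EGFR ligands, the neuregulins and the secreted FGF ligands in the WT-labelled (WT) and KO-labelled (KO) library, 1 library per bar, with each colour a gene; "others" sums the remaining genes of the family. The PDGF bars (83.5 and 99.99 RPKM) differ mostly in their Pdgfd and Pdgfb sections, the EGFR ligand bar is shorter under the KO label (95.02 and 64.9 RPKM) and the neuregulin bar taller (14.4 and 31.8 RPKM).

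Among the ligands of EGFR, epiregulin and HB-EGF made up nearly all of the level. Ereg, an inflammatory and ovulatory ligand that also engages ERBB4, had 47.0 RPKM (1835 reads) under the WT label and 22.0 RPKM (868 reads) under the KO label. It ranked 3 and 13 among the 27 genes, with an interval of -1.21 to -0.98 that straddles the 2-fold mark. Hbegf, a heparin-binding ligand, had 41.9 RPKM (939 reads) and 37.4 RPKM (848 reads), with an interval of -0.30 to -0.03.

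Betacellulin and TGF-alpha, both minor here, differed in opposite directions. Btc had 3.05 RPKM (83 reads) under the WT label and 0.437 RPKM (12 reads) under the KO label, 6.99-fold lower (interval -3.82 to -1.92). Tgfa had 2.18 RPKM (87 reads) and 4.56 RPKM (184 reads), a plain ratio of 2.09 with an interval of 0.69 to 1.45, and stayed inside the 2-fold mark on the RPKM + 1 scale. Areg, encoding amphiregulin, was just under the limit for comparison at 0.971 and 0.524 RPKM (11 and 6 reads). The 5 EGFR ligand genes summed to 95.02 and 64.9 RPKM.

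Of the neuregulins, ligands of ERBB3 and ERBB4, Nrg1 was at least 2-fold higher under the KO label and Nrg4 was the other gene compared. Nrg1, which guides Schwann cells and heart development, had 10.3 RPKM (205 reads) under the WT label and 26.4 RPKM (531 reads) under the KO label, 2.56-fold higher (interval 1.12 to 1.598). The authors' deposited table gives Nrg1 a generalized log2 fold change of 1.14. Nrg4, a product of brown fat, had 4.01 RPKM (73 reads) and 5.27 RPKM (97 reads), within counting error (interval -0.06 to 0.85). Nrg2 (0 and 1 reads) and Nrg3 (2 and 0 reads) were at the detection limit. The length behind the Nrg1 value was 2103 bases, against 7880 exonic bases in GENCODE M21. For Pdgfa it was 1015 against 2942, for Pdgfd 1795 against 3154 and for Egfr 6438 against 10954. These levels rest on a part of the gene. Smaller shortfalls were present for other compared genes, among them Vegfc (1881 against 2449).

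Of the ErbB receptor genes, those for EGFR and for the ligandless partner ERBB2 were expressed. Egfr had 15.2 RPKM (922 reads) under the WT label and 11.2 RPKM (686 reads) under the KO label (interval -0.59 to -0.30). Erbb2 had 16.4 RPKM (774 reads) and 17.1 RPKM (816 reads), with an interval that held 0 (-0.08 to 0.20). The neuregulin receptor genes were far lower, with 9 and 24 reads for Erbb3 (0.237 and 0.625 RPKM) and no read for Erbb4 in either library. The ligand Nrg1 thus stood well above the transcripts of its binding receptors in both libraries.

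Vegfa and Vegfb had high and close levels, and Vegfc was lower. Vegfa, the main signal for vessel growth, had 51.3 RPKM (2024 reads) under the WT label and 50.5 RPKM (2012 reads) under the KO label (interval -0.11 to 0.07). Vegfb had 38.1 RPKM (462 reads) and 36.4 RPKM (446 reads; interval -0.26 to 0.12). Vegfc, the lymphatic ligand, had 8.67 RPKM (154 reads) and 11.0 RPKM (198 reads), with an interval of 0.04 to 0.66. Over these 3 genes the sums were 98.2 and 98.0 RPKM. The VEGF-D gene Figf, outside the rule, had 35.0 and 31.8 RPKM, and Flt4, encoding the receptor of VEGF-C and VEGF-D, had 5.93 RPKM (327 reads) and 0.753 RPKM (42 reads).

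Hgf showed the largest difference of the 27 genes on the RPKM + 1 scale. Hepatocyte growth factor, or scatter factor, is a mesenchymal ligand whose receptor is MET. Hgf had 9.98 RPKM (343 reads) under the WT label and 0.432 RPKM (15 reads) under the KO label, 23.1-fold lower, with an interval of the log2 reads ratio of -5.38 to -3.79. The authors' deposited table gives it a generalized log2 fold change of -3.62. Met itself was expressed in both, with 15.1 RPKM (946 reads) and 17.6 RPKM (1120 reads; interval 0.10 to 0.35), so the receptor was slightly higher where the ligand was low.

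Kitl, encoding stem cell factor, had 24.9 RPKM (1280 reads) under the WT label and 46.2 RPKM (2404 reads) under the KO label, 1.86-fold higher (interval 0.80 to 0.99). It ranked 11 and 3 among the 27 genes. Kit, its receptor gene, had 1 read under the WT label and 0 under the KO label, which allow up to 0.0607 RPKM. Kit is also a mast cell and melanoblast gene, and of the markers of those cells Cpa3, Tpsb2 and Sox10 had 0 reads in both libraries.

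**Figure D3:**
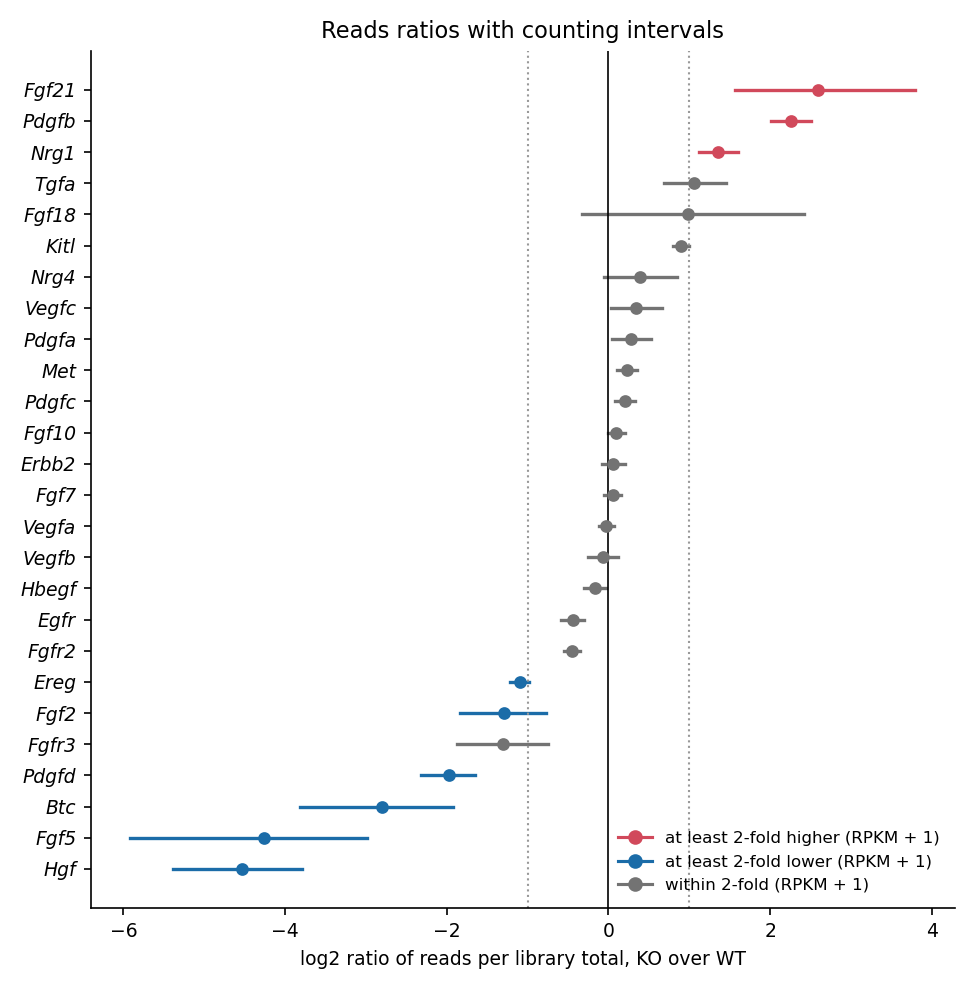
Log2 ratio of reads per library total, KO-labelled over WT-labelled, for the 26 compared genes with a single recovered number of reads; points are the ratio of 1 library to the other and lines the exact 95% counting interval, with dotted lines at 2-fold. Intervals of Pdgfb, Nrg1 and Fgf21 lie wholly past the upper line and those of Hgf, Fgf5, Btc and Pdgfd wholly past the lower one, while those of Ereg, Fgf2 and Fgfr3 cross it.

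Counting error alone left 7 of these 26 genes with an interval that held 0 (Fgf7, Fgf10, Fgf18, Nrg4, Erbb2, Vegfa and Vegfb), 9 with an interval above 0 and 10 with one below 0. These intervals say nothing of the spread between cultures. Intervals lay wholly past 2-fold for 3 genes on the higher side and 4 on the lower. These counts were not made over all compared genes, so they do not set the growth factor genes apart. The 23 genes that were not compared had at most 24 reads in a library, with 4 of them (Erbb4, Fgf4, Fgf12 and Fgf16) at 0 in both.

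**Figure D4:**
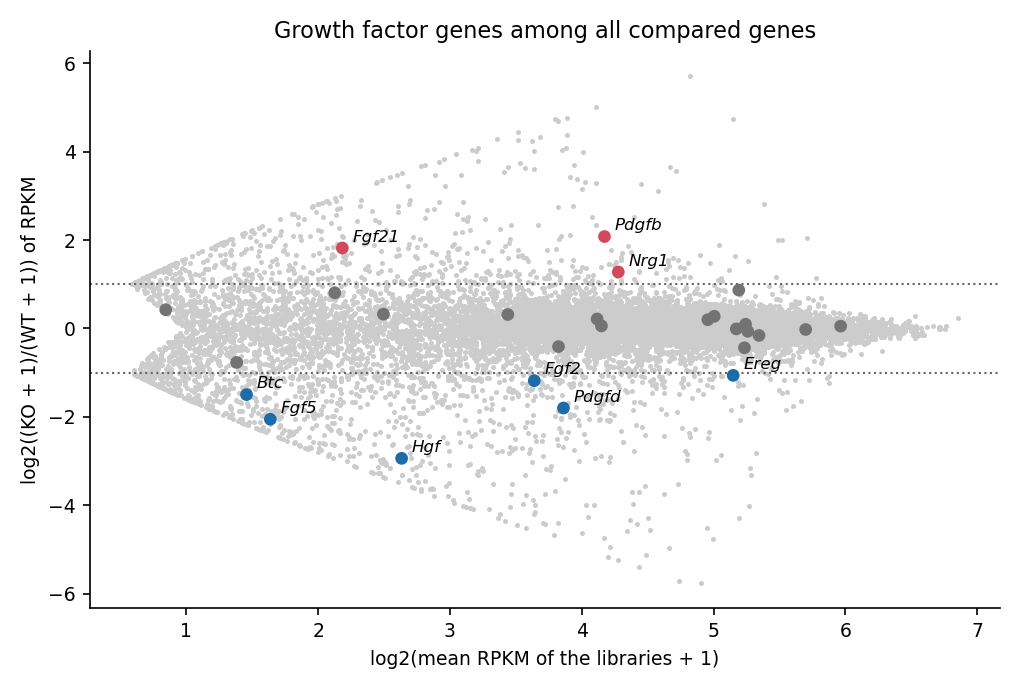
Log2((KO + 1)/(WT + 1)) of RPKM against log2 of the mean RPKM of the libraries plus 1 for all 13867 compared genes (light grey) and the 27 growth factor and receptor genes (large points; red at least 2-fold higher, blue at least 2-fold lower, dark grey within 2-fold). The 9 labelled genes lie outside the dotted 2-fold lines, from Hgf at -2.94 to Pdgfb at 2.08, amid many other genes at the same level.

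The genes around the ligands and receptors were followed over 6 lists (other ligands and receptors, heparan sulfate, ligand processing, adaptors with RAS and ERK, feedback inhibitors, and ERK response genes). Of 96 genes compared, 2 passed the 2-fold mark upward and 7 downward under the KO label. These shares, 2.08% and 7.29%, stand beside 4.42% and 7.46% of all genes, and the median log2 ratio was -0.08. Among the other ligands and receptors 0 of 13 were higher and 2 lower, namely Flt4 and Csf1r, the macrophage receptor gene that is also among the myeloid markers above. The ends among genes with at least 5 RPKM were Flt4 and the placental growth factor gene Pgf (6.48 and 4.36 RPKM) on the lower side, and the FGF-binding protein gene Fgfbp3 (7.66 and 8.41 RPKM) and Flt1 (6.64 and 8.14 RPKM) on the other.

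Heparan sulfate carries FGFs, HB-EGF and VEGF at the cell surface, and of 20 genes compared 1 passed the 2-fold mark upward and 1 downward (5% each, beside 4.42% and 7.46% of all genes). Sulf2, a sulfatase that trims 6-O-sulfate from the chains, had 16.4 RPKM (642 reads) under the WT label and 53.3 RPKM (2104 reads) under the KO label, the gene on the higher side. Sulf1, the paralog, had 39.4 and 26.1 RPKM. Gpc6, a glypican core protein gene, was the gene on the lower side, with 27.7 RPKM (1773 reads) and 7.89 RPKM (511 reads), whereas the glypican genes Gpc2 (3.20 and 5.67 RPKM) and Gpc3 (0.934 and 2.49 RPKM) had higher values under the KO label. The other 18 genes lay within 2-fold on the RPKM + 1 scale, among them the syndecan genes Sdc1 (61.6 and 50.9 RPKM) and Sdc4 (74.1 and 66.3 RPKM).

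Among genes that release or activate the ligands, 1 of 10 was at least 2-fold higher and 1 lower (10% each, beside 4.42% and 7.46% of all genes). With 10 genes these shares do not set the list apart. Rhbdf2, which encodes iRhom2, the partner that brings the EGF ligand sheddase ADAM17 to the surface, had 0.135 RPKM (5 reads) under the WT label and 20.7 RPKM (779 reads) under the KO label. Its relative Rhbdf1 was level, at 39.1 and 39.6 RPKM, as was Adam17 within 2-fold, at 39.2 and 34.1 RPKM. Spint2, encoding an inhibitor of the proteases that activate HGF, had 10.3 RPKM (142 reads) and 1.15 RPKM (16 reads), so it was low in the library where Hgf was low. Adam9 (63.9 and 53.8 RPKM) and Adam12 (17.0 and 23.6 RPKM) were the next at either end.

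In the intracellular pathway, of 19 adaptor, RAS, RAF and ERK genes none was 2-fold apart, beside 4.42% higher and 7.46% lower of all genes. Their median log2 ratio was -0.02. Gab2 (9.44 and 6.21 RPKM) and Frs3 (6.79 and 4.42 RPKM) were at the lower end and Frs2 (41.4 and 49.5 RPKM) and Map2k2 (26.8 and 33.6 RPKM) at the upper. Of 18 feedback inhibitor genes 2 were at least 2-fold lower (11.1%, beside 7.46% of all genes), both Sprouty genes, which receptor signalling induces and which dampen RAS activation. Spry1 had 14.7 RPKM (345 reads) under the WT label and 2.19 RPKM (52 reads) under the KO label. Spry4 had 8.21 RPKM (356 reads) and 2.69 RPKM (118 reads), and Spry2 39.9 and 26.9 RPKM. Dusp6, an ERK phosphatase that ERK activity induces, was level at 24.3 and 25.1 RPKM, and Spred2 (25.4 and 31.8 RPKM) and Lrig1 (35.1 and 44.0 RPKM) were at the upper end.

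ERK response genes, transcription factors and early genes induced by growth factors, had 1 of 16 at least 2-fold lower and 0 higher (median log2 ratio -0.02). These shares, 6.25% and 0%, stand beside 7.46% and 4.42% of all genes. The lower gene was Etv1, with 10.8 RPKM (429 reads) under the WT label and 3.55 RPKM (143 reads) under the KO label. Its relatives Etv5 (33.5 and 20.3 RPKM) and Etv4 (15.3 and 23.4 RPKM) were apart in opposite directions within 2-fold. Myc had 46.2 and 54.1 RPKM.

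**Figure D5:**
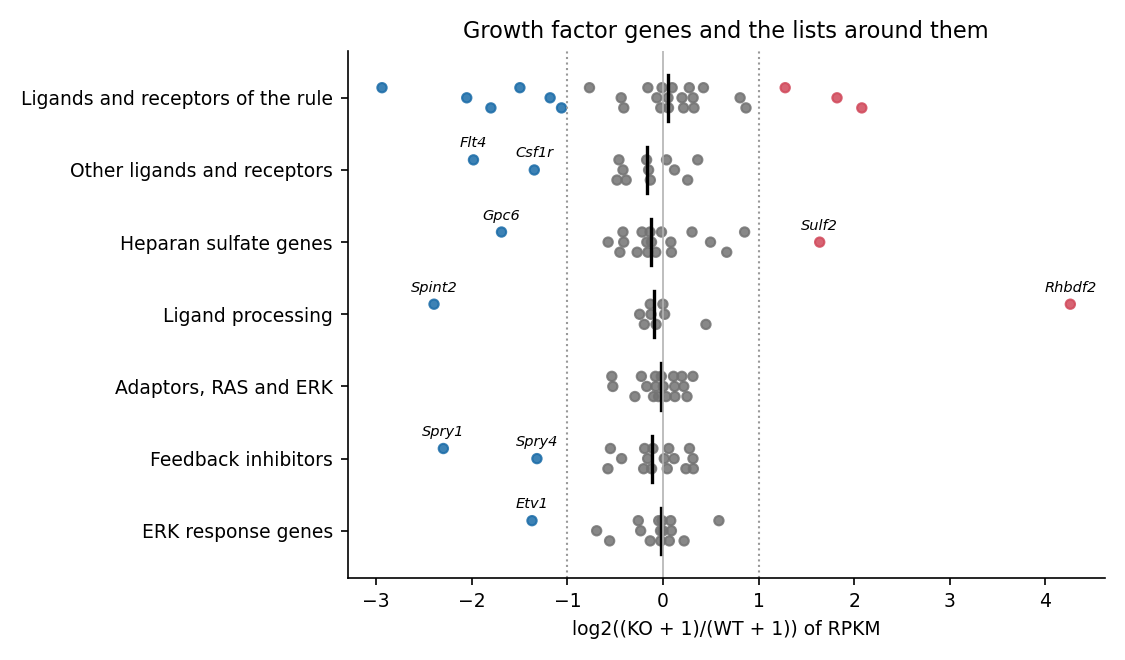
Log2((KO + 1)/(WT + 1)) of RPKM for the compared genes of the rule and of 6 surrounding lists; each point is a gene, black bars are list medians, dotted lines mark 2-fold, and red points lie past it upward and blue points downward. The ligand and receptor genes reach 2.08 and -2.94, and in the other lists the named genes (Flt4, Csf1r, Gpc6, Sulf2, Spint2, Rhbdf2, Spry1, Spry4 and Etv1) lie outside the lines.

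None of the 50 genes had a listed edited site in either library, of 654 sites in the WT-labelled and 110 in the KO-labelled list. A site can also be absent from a list for want of reads, and 23 of the 50 genes stayed under 1 RPKM. How many of all genes had a listed site was not counted, so the absence does not set these genes apart.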

How the data were processed

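Poly(A)+ RNA of 1 library per genotype was analysed. STAR 2.4.0d, SAMtools and the build mm9 appear, without roles, per the submitters' processing notes. For annotation, counting rule and strand, the entry is: not given in the sources used here. The deposited table holds RPKM per library, and, per the file headers, a fold change on the log2 scale, the GFOLD generalized fold change and an empirical false discovery rate (a p-value-like column deposited by the authors, 1 in every row and not used). The editing lists hold, per the file headers, counts of reads and of mismatches at each site and the editing level as a fraction.

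Reads were recovered from the table: genes at 0 in 1 library gave whole reads through the deposited log2 fold change (reads plus 1), and the library total that made gene lengths whole returned the 6 printed digits of all 1482 and 711 such genes. A single pair of read numbers was found for 17363 of 17981 genes above 0 (96.6%; lengths of 50 to 30000 bases searched). Ratios are log2((KO + 1)/(WT + 1)) of RPKM, for genes reaching 1 RPKM in either library; intervals are exact 95% (Clopper-Pearson, conditional on the sum). Functions were checked on simulated data. Python 3.11.15, scipy 1.17.1 and matplotlib 3.10.9 were used.

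Members and lists were chosen with earlier results of these data known. All members were accounted for; of other lists the 2 highest and 2 lowest log2 ratios among genes with at least 5 RPKM were named, and further genes were named after their values were seen. The planned protein comparison was not run. Promoter sequences are RefSeq's (GRCm38.p6; 22 of 27 compared genes matched). Other settings are in the closing section.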

Additional observations from a re-analysis of the deposited data

How the results depend on the processing

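No paired analysis was possible because each genotype has 1 library. The counts of 3 higher and 6 lower genes of the rule stayed within 1.5 times of themselves with ratios centred on the median, with trimmed-mean scaling (a shift of 0.02 on the log2 scale), without the filter on low values and with a pseudocount of 0.5. With a pseudocount of 0.1 they were 4 and 7, adding the ligand gene Tgfa and the receptor gene Fgfr3 (5.99% and 9.33% of all genes), with a filter at 5 RPKM 3 and 4 (3.01% and 5.62%), and by the generalized fold change of the authors' deposited table they were 3 and 4 (3.21% and 5.6%). Chosen after seeing the data, intervals wholly past 2-fold gave 3 and 4, and leaving out genes that overlap a gene of the table gave 3 and 5, without Fgf2. Nrg1 and Ereg, which overlap genes not in the table, stayed in. For neither of these settings was a share of all genes computed. At 1.5-fold 5 were higher, with Kitl and Tgfa, and 7 lower, with Fgfr3 (8.99% and 12% of all genes). At 3-fold 2 were higher, without Nrg1, and 3 lower, without Btc, Ereg and Fgf2 (1.8% and 3.64%). In the surrounding lists, of 96 genes compared, 4 were higher and 8 lower at 1.5-fold (8.99% and 12% of all genes). At 3-fold 2 were higher and 4 lower (1.8% and 3.64% of all genes). No log2 ratio past the 2-fold mark changed sign. Genes under 1 RPKM had at most 24 reads, and their intervals are wide, though those of Fgf23 (-5.27 to -1.16), Erbb3 (0.24 to 2.69) and Fgf17 (0.30 to 8.61) did not hold 0.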

Other observations

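Edited sites were listed in 2 genes of the surrounding lists, both in the WT-labelled library alone and both in 3′ untranslated regions. Nras, encoding a RAS GTPase that growth factor receptors activate, had a site on chromosome 3 (mm9, position 102870013, plus strand) with the edited base in 44.2% of 52 reads. Nrp1, encoding a co-receptor for VEGF-A, had a site on chromosome 8 (131028073, plus strand) with 33.3% of 30 reads. Nrp1 had 36.5 and 27.7 RPKM in the WT-labelled and KO-labelled library.

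Csf1, encoding a macrophage growth factor outside the rule, had 72.7 and 74.6 RPKM, above every ligand gene of the rule in either library.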
